A study of Rattus norvegicus with 21 samples.

Results

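Arc, Homer1, Nr4a1, Nr4a2 and Plk2 are genes that neurons transcribe in response to synaptic activity. Each was carried by 1 probe on the array, and all 5 probes with one of these symbols in the probe annotation were taken, out of 5376 rows of the table, 4962 of which held a value, and 4148 named genes. The study tested anti-inflammatory compounds in a culture model of spinal cord injury and measured rat RNA on 21 2-colour arrays in 7 groups of 3. Freshly dissected cord (Uninjured), single cultures kept for 4 hr with PBS (Injured 4 hr) and cultures given CKIN, MP or acetaminophen (Acet) were set beside a pool of PBS cultures as reference. Indomethacin cultures (Indo) were set beside an ethanol (ETOH) reference and NS398 cultures beside a DMSO reference. All treated cultures were also taken at 4 hr. The titles of the treatment arrays do not say that their references were pooled, or that the PBS pool was 1 pool throughout; both were taken as likely. The labels give no strain, sex, age or dose. They do not say whether the 3 samples of a group came from separate animals or cultures, so p-values cover the spread among these samples, which may be technical. CKIN and MP are given as letters only and are read from field knowledge as cytokine inhibitors and methylprednisolone, a glucocorticoid. Indomethacin inhibits both cyclooxygenases, NS398 prefers cyclooxygenase 2, and acetaminophen is an analgesic.

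Calcium entry through glutamate receptors and voltage-gated channels activates calcium-dependent kinases, MAP kinases and the transcription factor CREB, and these switch on a first wave of genes that needs no new protein. Nr4a1 (Nur77) and Nr4a2 (Nurr1) are orphan nuclear receptors of that wave and act as transcription factors. Nr4a2 is also needed for dopamine neurons to form. Arc binds endocytic proteins and removes AMPA receptors from synapses. Homer1 is a scaffold that ties group 1 metabotropic glutamate receptors to inositol trisphosphate receptors and Shank, and its short activity-induced form, Homer1a, uncouples them. Plk2 is a kinase that lowers synaptic strength after prolonged activity. Nr4a1 and Plk2 are also induced by stress and growth signals in other cell types. The probe annotation does not say which Homer1 form the probe detects.

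The promoters of 4 of the 5 genes are shown because CREB sites in them are the textbook link between calcium signals and these genes. They are the 250 bases before the annotated start in RefSeq on the GRCr8 build, at chr7:134259888-134260137 (plus strand) for Nr4a1, chr3:62104888-62105137 (minus strand) for Nr4a2, chr2:26278762-26279011 (plus strand) for Homer1 and chr2:43702286-43702535 (plus strand) for Plk2. Each runs 5′ to 3′ along the gene, and capitals mark matches, on either strand, to the motifs named below.
Nr4a1: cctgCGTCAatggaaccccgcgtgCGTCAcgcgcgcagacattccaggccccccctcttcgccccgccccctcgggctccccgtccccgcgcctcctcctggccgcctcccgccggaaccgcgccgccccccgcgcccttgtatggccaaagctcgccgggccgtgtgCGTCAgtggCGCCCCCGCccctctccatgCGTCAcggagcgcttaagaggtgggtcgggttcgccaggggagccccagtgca
Nr4a2: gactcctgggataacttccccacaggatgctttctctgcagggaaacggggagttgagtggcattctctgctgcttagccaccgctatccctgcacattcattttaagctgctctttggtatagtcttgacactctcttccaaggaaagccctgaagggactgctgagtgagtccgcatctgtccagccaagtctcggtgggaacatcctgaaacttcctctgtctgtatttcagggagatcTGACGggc
Homer1: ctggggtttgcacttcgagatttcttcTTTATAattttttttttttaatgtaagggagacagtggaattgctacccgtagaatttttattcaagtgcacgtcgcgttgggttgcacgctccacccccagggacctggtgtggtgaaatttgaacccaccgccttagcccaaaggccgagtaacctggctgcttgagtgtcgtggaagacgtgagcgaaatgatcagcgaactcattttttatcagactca
Plk2: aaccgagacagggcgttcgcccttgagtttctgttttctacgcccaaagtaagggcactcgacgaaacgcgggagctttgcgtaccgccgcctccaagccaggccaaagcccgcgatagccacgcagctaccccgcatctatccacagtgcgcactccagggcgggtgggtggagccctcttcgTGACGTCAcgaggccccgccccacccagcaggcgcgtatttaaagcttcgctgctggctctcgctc

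Motifs were searched on both strands from 250 bases before to 50 bases after the start. They were the full cAMP response element TGACGTCA, its 5-base core TGACG (called the short CRE here, and held 2 times by every full element), the AP-1 site TGANTCA, the CArG box, the Nr4a site AAAGGTCA, the Egr site GCGTGGGCG or GCGGGGGCG, and TATAAA. Plk2 had a full element from -66 to -59, a motif found in 1.83% of 33469 rat promoters of the same length. Nr4a1 had 4 short CRE matches, all on the minus strand, and 1 Egr site from -73 to -65. The short CRE was found in 21.2% of all promoters and the Egr site in 3.2%. Nr4a2 had 1 short CRE from -8 to -4. Homer1 had none of these, and 1 TATAAA match on the minus strand from -223 to -218, a motif found in 14.2% of promoters. No AP-1 site, CArG box or Nr4a site was found in these windows (7.33%, 1.64% and 1.43% of all promoters). A match is a description of the letters and not a measured binding site.

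**Figure D1:**
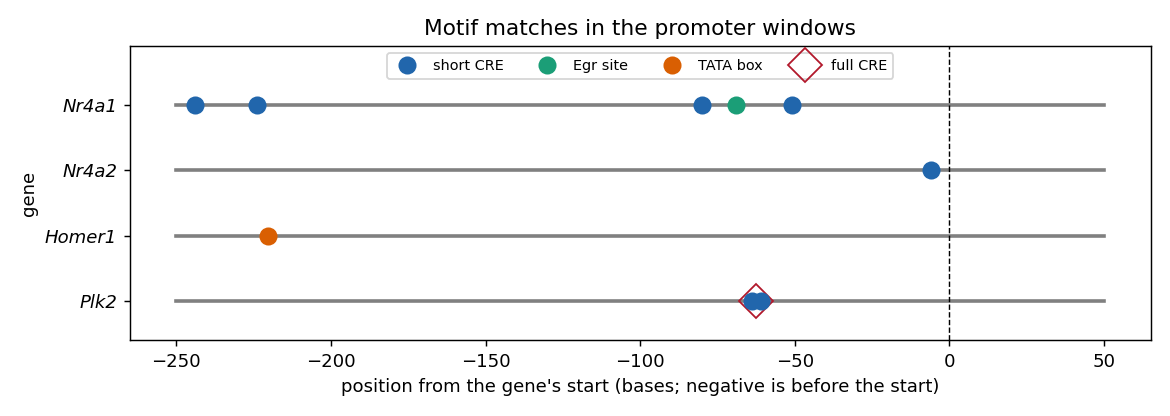
Motif matches in the promoter windows of 4 genes. The horizontal axis is the distance in bases from the annotated start (dashed line). Circles are short CRE, Egr and TATA matches, and the diamond is the full element of Plk2, with its 2 short CRE matches inside.

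The values are log2 ratios of sample to reference pool, centred here on the median of each array, so 0 is the median probe. That the sample is the numerator is likely and not stated. Its basis is that genes known to rise on injury were higher in Injured 4 hr than in Uninjured. Examples are Ccl4 by 3.75 ± 0.64 and Hspa1a by 3.6 ± 0.46 and, in another probe, 2.43 ± 0.49 (SE, n = 3 per group). Ptgs2 and Atf3, reported below, were also among the genes looked at for this. The check covers only the Uninjured and Injured 4 hr arrays. For the 15 treatment arrays the direction rests on the order of names in the titles. All 15 treatment arrays and 6 others were kept; 3092 to 4916 probes were measured per array, and the 10 arrays with more than 1100 missing spots were 3 CKIN, 3 Indo, 2 MP, 1 Acet and 1 NS398. The number of arrays limits the precision. A call is a limma adjusted p below 0.05, adjusted over all probes tested in the comparison.

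Arc, Homer1, Nr4a1, Nr4a2 and Plk2 lay in the middle part of all probes in Uninjured and Injured 4 hr, and some lay further out in treated cultures. Their mean ratios lay between the 30.3 and 49.2 percentile of all probes in Uninjured and between the 35 and 71.7 percentile in Injured 4 hr. Against their own references, Homer1 in NS398 was at the 89.4 percentile and Nr4a2 in Indo at the 15.3 percentile. The range of the 7 group means was 0.6 for Arc, 0.63 for Nr4a2, 0.92 for Nr4a1, 1.11 for Plk2 and 1.19 for Homer1. The median range was 1.55 over probes with a mean in all 7 groups. The spread within groups was a pooled SD of 0.32 for Arc and Nr4a1, 0.43 for Homer1 and 0.47 for Nr4a2 and Plk2. The median SD was 0.5 over 4533 probes. All 5 genes thus had a smaller range of group means than the median probe. This range also takes in differences between the PBS, ETOH and DMSO references.

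Correlations among the 5 genes were low. Over the 20 or 21 arrays that each pair shared, Pearson's r of centred ratios ran from -0.19 (Nr4a2 and Plk2) to 0.29 (Homer1 and Nr4a1). In the ratios as deposited, which share each array's median, r ran from 0.88 to 0.95.

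**Figure D2:**
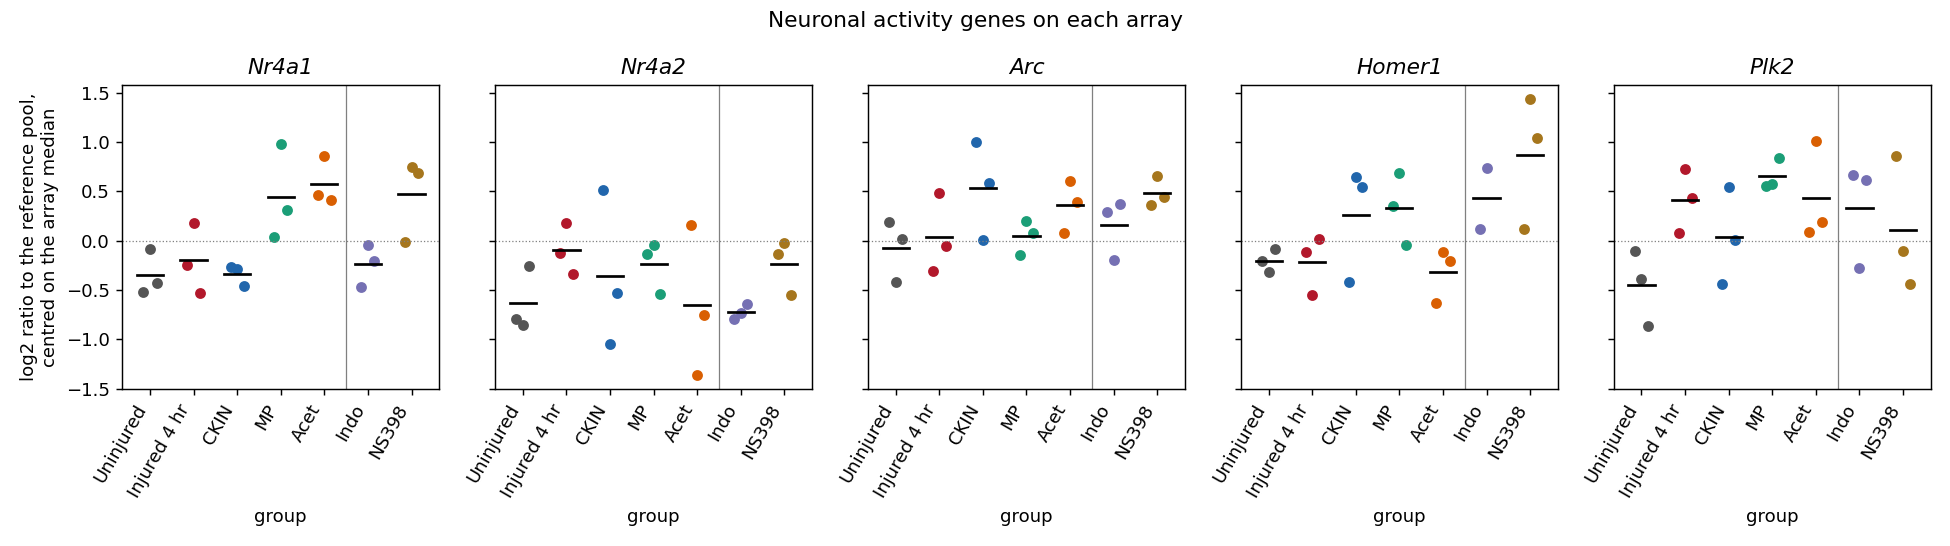
Centred log2 ratio to the reference pool (vertical axis) of each array (points) in the 7 groups, with the group mean (line), for Nr4a1, Nr4a2, Arc, Homer1 and Plk2. Groups right of the grey line have an ETOH or DMSO reference and cannot be ordered with the others. Homer1 has a mean of 0.87 over its DMSO reference in NS398, and all 3 Indo arrays of Nr4a2 lie below 0.

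Among the transcription factors, Nr4a1 had its highest means among the PBS-referenced groups in acetaminophen and MP cultures. Its ratios were -0.52, -0.08 and -0.43 in Uninjured and -0.25, 0.18 and -0.53 in Injured 4 hr. They were -0.27, -0.29 and -0.46 in CKIN, 0.04, 0.98 and 0.31 in MP and 0.46, 0.86 and 0.41 in Acet. All Acet values lay above all Injured 4 hr and all CKIN values, while MP overlapped Injured 4 hr in 1 array. Against their own references Nr4a1 stood at -0.47, -0.04 and -0.21 in Indo and at -0.01, 0.75 and 0.69 in NS398. Ordered by mean, Acet (0.58) and MP (0.44) differed by less than the spread, as did Injured 4 hr (-0.2), Uninjured (-0.34) and CKIN (-0.34), and the wider step lay between MP and Injured 4 hr.

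Nr4a2 lay below the array median on 18 of 21 arrays. Its ratios were -0.79, -0.85 and -0.26 in Uninjured, and -0.12, 0.18 and -0.34 in Injured 4 hr. In CKIN they were 0.51, -1.05 and -0.53, in MP -0.13, -0.04 and -0.54, and in Acet 0.16, -1.36 and -0.75. The CKIN and Acet arrays spanned more than all other groups and overlapped each of the other PBS-referenced groups. In Indo the 3 values were close together, at -0.79, -0.73 and -0.64, and in NS398 they were -0.13, -0.02 and -0.55. The order of means ran from Injured 4 hr (-0.09) through MP (-0.24), CKIN (-0.36) and Uninjured (-0.64) to Acet (-0.65), and no neighbours in it differed beyond the spread.

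Among the genes that act at the synapse, Arc moved least. Its ratios were 0.19, -0.42 and 0.02 in Uninjured and -0.31, 0.48 and -0.05 in Injured 4 hr. They were 1, 0.01 and 0.59 in CKIN, -0.14, 0.2 and 0.08 in MP and 0.08, 0.61 and 0.39 in Acet. Every treated group overlapped the Injured 4 hr arrays. Arc was 0.29, -0.19 and 0.37 in Indo and 0.36, 0.66 and 0.44 in NS398, where all 3 arrays lay above 0. The order CKIN (0.53), Acet (0.36), MP (0.05), Injured 4 hr (0.04), Uninjured (-0.07) had no neighbours that differed beyond the spread.

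Homer1, the synaptic scaffold, lay above 0 on all 3 NS398 arrays and below 0 on all 3 Acet arrays. Its ratios were -0.21, -0.32 and -0.08 in Uninjured and -0.11, -0.55 and 0.02 in Injured 4 hr, which overlapped. They were -0.42, 0.65 and 0.55 in CKIN, 0.35, 0.69 and -0.04 in MP and -0.63, -0.11 and -0.21 in Acet. All 3 MP values exceeded all 3 Acet values, and both groups overlapped Injured 4 hr. The NS398 values were 0.12, 1.44 and 1.04, all above 0 and far apart, and 2 Indo arrays gave 0.12 and 0.74 (the third had no value). In the order MP (0.34), CKIN (0.26), Uninjured (-0.2), Injured 4 hr (-0.21), Acet (-0.32), only the step from CKIN to Uninjured exceeded the pooled SD, and their arrays overlapped.

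Plk2, the kinase that lowers synaptic strength, was lowest in fresh cord. Its ratios were -0.1, -0.39 and -0.86 in Uninjured and 0.08, 0.73 and 0.43 in Injured 4 hr, and these did not overlap. They were -0.44, 0.55 and 0.01 in CKIN, 0.56, 0.58 and 0.84 in MP and 0.09, 1.01 and 0.19 in Acet. All MP values lay above all CKIN values, and MP overlapped Injured 4 hr. Indo gave 0.67, -0.28 and 0.62 and NS398 gave 0.86, -0.1 and -0.44, each on both sides of 0. In the order MP (0.66), Acet (0.43), Injured 4 hr (0.41), CKIN (0.04), Uninjured (-0.45), only the step from CKIN to Uninjured exceeded the pooled SD, and their arrays overlapped.

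Cutting and culturing the cord was addressed by Injured 4 hr minus Uninjured. Plk2 was higher by 0.86 ± 0.39 on the log2 scale (SE, n = 3 per group; 95% interval 0.06 to 1.67; 1.82-fold) but did not pass, with a limma adjusted p of 0.143 and an unadjusted p of 0.037. Nr4a2 differed by 0.54 ± 0.39 (adjusted p = 0.379), Nr4a1 by 0.14 ± 0.32, Arc by 0.11 ± 0.32 and Homer1 by -0.01 ± 0.37. None of the 5 was called by limma (1 at an unadjusted p under 0.05), where 14.3% of 4822 probes were called, 39 higher and 651 lower. Plk2 was the only one whose groups did not overlap, which held for 52.6% of 4115 probes with all 6 values. The intervals reach 0.66 to 0.81 either side of each difference, so a smaller difference could not be told from 0. A call after adjustment needed more than that, since Plk2 at 0.86 did not pass. Plk2 passed in a fit of only these 6 arrays (0.86 ± 0.27, adjusted p = 0.0231) and in corrected ratios (1.64 ± 0.37, adjusted p = 0.00855). Of all probes, 37.8% were called in the fit of 6 arrays and 7.15% in corrected ratios. For the corrected ratios, a loess curve of each array on the averaged Injured 4 hr arrays was subtracted and source plates were centred. By construction this flattens the Injured 4 hr arrays. A corrected Indo or NS398 value is also no longer a plain ratio to its own reference.

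The split of all calls depended on scaling. Of the probes called, 2416 were higher and 14 lower in the deposited ratios, 14 and 6 after quantile normalization, 29 and 4 after scale normalization, and 120 and 225 in corrected ratios. In the deposited ratios the median of all probes moved by 1.47, and all 5 genes were called higher. A rise or fall is therefore relative to the array median.

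**Figure D3:**
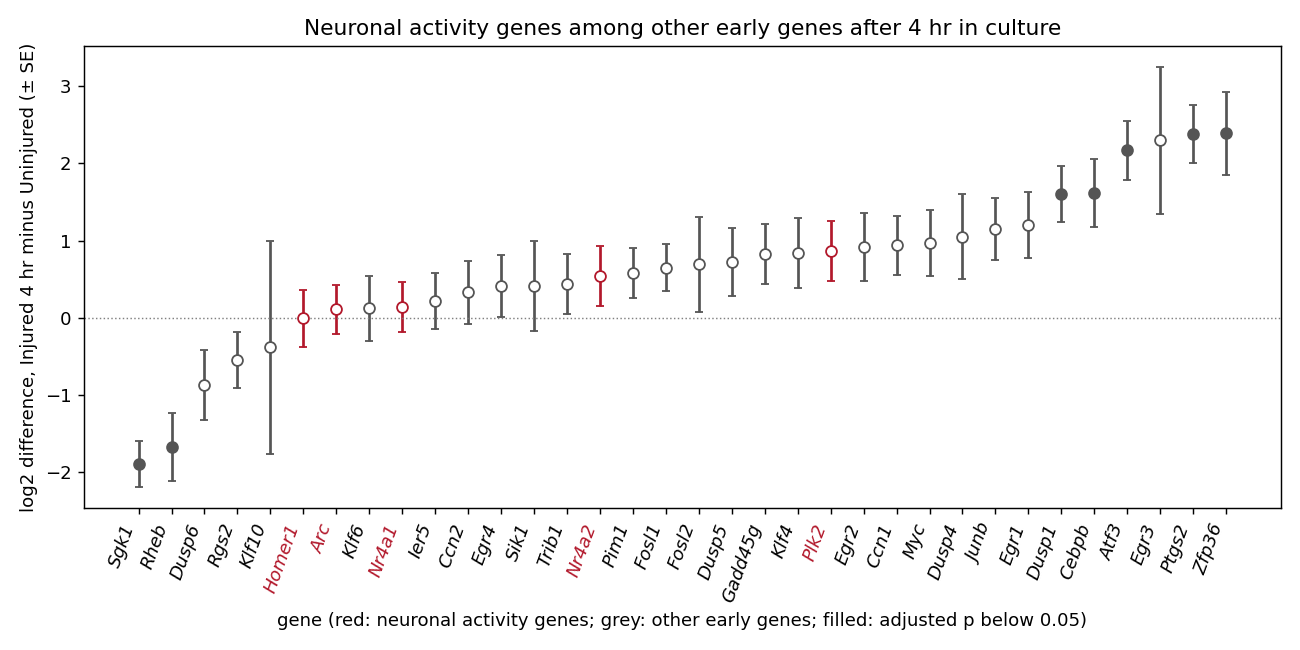
Log2 difference (vertical axis, ± SE, 3 arrays per group) of Injured 4 hr minus Uninjured for 29 other early genes (grey) and Nr4a1, Nr4a2, Arc, Homer1 and Plk2 (red), ordered by size. Filled points passed the test, and no red point did. Homer1 (-0.01), Arc (0.11) and Nr4a1 (0.14) lie near 0, below most of the other early genes.

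Several other early genes of the same first wave rose. Of 29 measured, 5 rose and 2 fell, against 0.809% and 13.5% of all probes, and 24 of 29 differences were positive with a median of 0.72, against -0.04 over all probes. Zfp36, which destabilises cytokine mRNA, rose by 2.39 ± 0.54 (limma adjusted p = 0.0048), Ptgs2, which encodes cyclooxygenase 2, by 2.38 ± 0.38 (adjusted p = 0.000495), and the stress transcription factor Atf3 by 2.17 ± 0.38 (adjusted p = 0.000682). The kinase Sgk1 changed by -1.9 ± 0.3 (adjusted p = 0.000262). Counts of rises and falls were 24 and 0 in deposited ratios, 2 and 0 after quantile and 5 and 0 after scale normalization, and 9 and 1 in corrected ratios.

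Later effectors, synaptic partners and upstream signalling genes of the pathway held falls and no rises in centred ratios, beside falls in 13.5% of all probes. Of 26 probes for later activity-regulated effectors, 0 rose and 5 fell (median -0.42), among them the neurofilament gene Nefm by -2.64 ± 0.5 and the secretory granule gene Scg2 by -2.25 ± 0.33. Of 31 probes for synaptic partners of Homer1, Arc and Plk2, 0 rose and 4 fell (median -0.35), a share near that of all probes, including the endophilin Sh3gl2 by -1.92 ± 0.5, dynamin Dnm1 by -1.65 ± 0.51 and the postsynaptic scaffold Dlg4 by -1.55 ± 0.32. Of 30 probes for calcium, MAP kinase and CREB signalling, 0 rose and 9 fell (median -0.83). The falls were led by the calcineurin subunit Ppp3r1 at -2.51 ± 0.43 (2 Uninjured arrays) and the kinase Camk2g at -2.24 ± 0.27. After quantile or scale normalization 0 of these 3 lists' probes passed in either direction, and in deposited ratios 9, 14 and 9 rose. In corrected ratios 2 rose and 3 fell among the later effectors, 0 and 2 among the synaptic partners, and 1 and 5 among the signalling genes. The family members Homer3 (-0.56 ± 0.4), Plk1 (0.3 ± 0.41) and Plk3 (0.26 ± 0.34) did not pass.

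Markers of neurons moved with this comparison. Of 18 neuron marker probes 13 fell, and the mean ratio of 16 of them ran from 2.99 to 3.39 over the Uninjured arrays and from 1.28 to 1.34 over the Injured 4 hr arrays. Of the 18 neuron probes, 0 fell after scale normalization, 3 after quantile normalization, 5 in deposited ratios and 9 in corrected ratios. Astrocyte markers fell in 8 of 14 probes, from 2.38 to 2.62 down to 0.7 to 0.9. These astrocyte falls were 0 after quantile or scale normalization, 1 in deposited ratios and 6 in corrected ratios. Microglia and macrophage markers fell in 0 of 8 probes, with 0.16 to 0.3 against 0.27 to 0.39. In bulk RNA fewer cells of a type and less RNA per cell cannot be told apart. The part of neuron content in the values of the 5 genes was not tested.

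CKIN minus Injured 4 hr gave differences of 0.49 ± 0.33 for Arc, 0.47 ± 0.38 for Homer1, -0.14 ± 0.33 for Nr4a1, -0.27 ± 0.39 for Nr4a2 and -0.37 ± 0.39 for Plk2. None was called by limma (0 at an unadjusted p under 0.05; lowest adjusted p = 0.312), where 20% of 3736 probes were called, and none was free of overlap, where 52% of probes were. In corrected ratios Homer1 was 1.01 ± 0.33 (adjusted p = 0.146) and did not pass either. Of 23 other early genes 7 fell (list median -0.62), against falls in 18.5% of all probes and a median of -0.38. The falls included Cebpb by -2.75 ± 0.49 (2 CKIN arrays) and the AP-1 subunit Junb by -1.87 ± 0.4. In corrected ratios 0 fell, and in deposited ratios 11 rose and 0 fell. Cell type markers also fell in the same comparison, in 6 of 9 oligodendrocyte (median -1.84) and 4 of 13 astrocyte probes. Neuron markers fell in 3 of 17 probes, a share near the 18.5% of all probes. In corrected ratios 0 of each fell. The Injured 4 hr arrays themselves stood above the PBS pool in these markers, like RNA beside like RNA. There 8 of 9 oligodendrocyte (median 1.8), 7 of 14 astrocyte and 16 of 18 neuron probes rose, against 21% of all probes. The part of cell types and of this offset in the CKIN values was not tested.

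MP minus Injured 4 hr gave 0.64 ± 0.33 for Nr4a1 (adjusted p = 0.305), 0.55 ± 0.38 for Homer1, 0.25 ± 0.39 for Plk2, 0.01 ± 0.33 for Arc and -0.15 ± 0.39 for Nr4a2. None was called by limma (0 at an unadjusted p under 0.05), where 2.05% of 4391 probes were, and none was free of overlap, where 25.1% of probes were. In corrected ratios Homer1 was 1.12 ± 0.33 (adjusted p = 0.117) and Nr4a1 0.98 ± 0.26 (adjusted p = 0.0742). The 28 other early genes had 0 calls by limma in either direction and a median of -0.19, against -0.27 over all probes. In deposited ratios 18 rose, and after scale normalization 3 fell.

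Acet minus Injured 4 hr gave the largest of the 15 differences from Injured 4 hr, in Nr4a1, 0.78 ± 0.32 (95% interval 0.11 to 1.44; 1.71-fold), with an unadjusted p of 0.0248 and a limma adjusted p of 0.27. The other differences were 0.32 ± 0.32 for Arc, 0.02 ± 0.39 for Plk2, -0.11 ± 0.37 for Homer1 and -0.56 ± 0.39 for Nr4a2. None of the 5 was called by limma (1 at an unadjusted p under 0.05), where 1.31% of 4734 probes were. Nr4a1 was the only one free of overlap, as were 25.6% of probes. Its difference was 1.08 ± 0.26 in corrected ratios (adjusted p = 0.0586), where it was not the largest of the 15. Nr4a1 and Nr4a2 stood on opposite sides of 0 here.

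Values equal, to 4 decimals, to the logarithm of a ratio of whole numbers up to 12 made up 8 of the 74 values of the 5 genes on treatment arrays (10.8%), and between 4.73% and 7.14% of all values on those arrays. On the 6 Uninjured and Injured 4 hr arrays the share ran from 0.0457% to 0.717%, with none among the 5 genes. The part of this mark in the treatment comparisons was not tested.

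The 3 PBS-referenced treatments were also compared with each other at the shared 4 hr, which avoids the Injured 4 hr arrays. Nr4a1 was higher in Acet than in CKIN by 0.92 ± 0.33 (95% interval 0.24 to 1.59; limma adjusted p = 0.179), and in MP than in CKIN by 0.79 ± 0.33 (0.11 to 1.46; adjusted p = 0.258). Acet and MP differed by 0.13 ± 0.33 in Nr4a1 (-0.54 to 0.81). Homer1 was lower in Acet than in MP by -0.65 ± 0.38 (-1.43 to 0.12; adjusted p = 0.893). None of the 15 differences was called. The background was 0% of 3633 probes for MP minus CKIN (552 at an unadjusted p under 0.05), 0.16% for Acet minus CKIN and 0.0228% for Acet minus MP. Arrays did not overlap for Nr4a1 and Plk2 in MP minus CKIN (17.5% of probes), Nr4a1 in Acet minus CKIN (18.9%) and Homer1 in Acet minus MP (7.65%). These comparisons were added after the values were seen.

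Indo and NS398 were each tested against 0, so the reference counts as 1 control sample, and how such controls vary does not enter the test. As a measure of such a test, Injured 4 hr against the PBS pool, like RNA with like RNA, had 22.1% of 4865 probes called, 1020 of them higher, and none of the 5 genes. In Indo, Nr4a2 changed by -0.72 ± 0.28 (SE, n = 3; 95% interval -1.3 to -0.15; unadjusted p = 0.016, limma adjusted p = 0.0917) and did not pass. The others ran from -0.24 ± 0.23 for Nr4a1 to 0.43 ± 0.33 for Homer1, with Plk2 at 0.34 ± 0.28 and Arc at 0.16 ± 0.23. None was called by limma (1 at an unadjusted p under 0.05), where 13.3% of 3803 probes were. Nr4a2 passed after scale normalization (-0.84 ± 0.28, adjusted p = 0.0336) but stood at -0.03 ± 0.3 in corrected ratios. Homer1 passed there instead at 1.11 ± 0.29 (adjusted p = 0.0183). Of all probes, 19.5% were called after scale normalization and 9.94% in corrected ratios, which are not plain ratios to the ETOH reference. Of 24 other early genes 2 rose and 2 fell, against 2.6% and 10.7% of all probes. These counts were 8 and 2 after quantile normalization and 0 and 2 in deposited ratios.

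NS398 was the only comparison with a call. Homer1 rose by 0.87 ± 0.27 (SE, n = 3; 95% interval 0.32 to 1.42; 1.82-fold; limma adjusted p = 0.0237), and was above 0 in 3 of 3 arrays. Arc stood at 0.48 ± 0.23 (adjusted p = 0.137), Nr4a1 at 0.47 ± 0.23 (adjusted p = 0.142), Plk2 at 0.1 ± 0.28 and Nr4a2 at -0.23 ± 0.28. The background was 22% of 4486 probes, and 1 of 5 is near that share. Homer1 lost its call without replicate 2 (0.58, adjusted p = 0.203) and without replicate 3 (0.78, adjusted p = 0.115), in a fit of only the NS398 arrays (adjusted p = 0.196), and in the deposited ratios (-0.03), where the median of all probes moved by -0.98. In corrected ratios Homer1 was 1.47 ± 0.24 and Nr4a1 also passed, at 0.87 ± 0.19 (adjusted p = 0.00476). There 12.9% of all probes were called, and the values are not plain ratios to the DMSO reference.

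Of 29 other early genes in NS398, 10 rose and 0 fell, against 10.7% and 11.3% of all probes, with a median of 0.54. The like-with-like Injured 4 hr arrays against the PBS pool gave the same counts, 10 and 0 of 29, against 21% and 1.09% of all probes, with Zfp36 at 1.5 ± 0.38 and Dusp1 at 1.39 ± 0.26. Ptgs2 rose by 3.27 ± 0.27 (limma adjusted p = 1.86e-07), Atf3 by 1.93 ± 0.27, Zfp36 by 1.92 ± 0.38 and the phosphatase Dusp1 by 1.83 ± 0.26. In the deposited ratios 4 rose and 6 fell. Among the synaptic partners 0 of 28 rose and 3 fell, a share of falls near the background, and in corrected ratios 2 rose and 1 fell. Of 4 blood and granulocyte marker probes 3 rose, with the haemoglobin gene Hba-a1 at 2.25 ± 0.39 (0 rose in corrected ratios). In Injured 4 hr against the PBS pool 2 of these 4 rose, with Hba-a1 at 2.7 ± 0.39, so this was not particular to NS398. The part of these markers in the NS398 values was not tested.

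**Figure D4:**
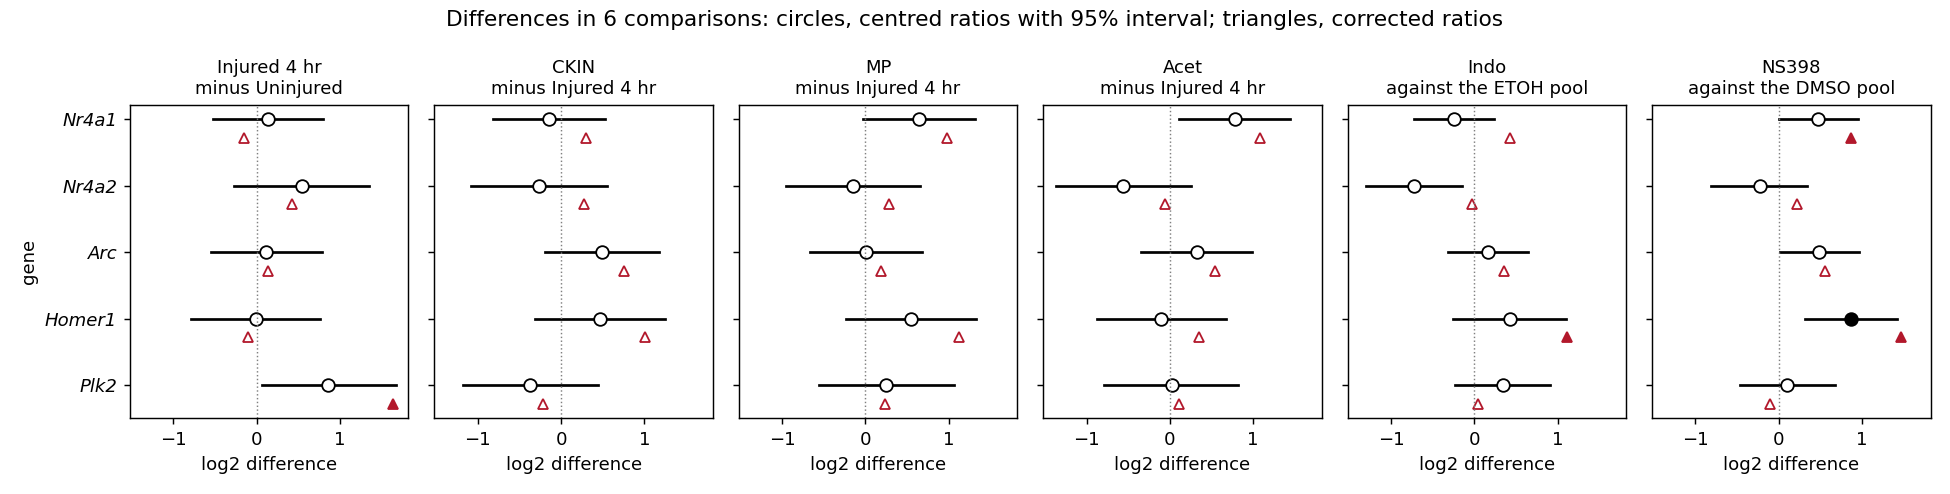
Log2 difference (horizontal axis) of Nr4a1, Nr4a2, Arc, Homer1 and Plk2 in the 6 comparisons. Circles are centred ratios with the 95% interval and triangles corrected ratios, and filled symbols passed the test. Homer1 in NS398 is the only filled circle, at 0.87.

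For each gene the 3 probes of other genes with the most similar pattern over arrays were found, among 3270 to 3394 candidates. They were Ly6i (r = 0.7, 17 arrays), Kif1b (0.67) and Olah (0.63) for Arc. For Homer1 they were Thpol1 (0.79, 19 arrays), Gip (0.74) and Ttr (0.73). For Nr4a1 they were Reg3b (0.79, 21 arrays), Tpi1 (0.76) and Ttn (0.75), and Reg3b's probe name, 52G12, begins like that of Nr4a1, 52G08. For Nr4a2 they were St8sia1 (0.64, 17 arrays), Cyp2c7 (0.64) and Pla2g2a (0.62), and for Plk2 Mxd3 (0.81, 18 arrays), Pde4c (0.72) and Bglap (0.7). None of the 15 is one of the other 4 genes or on the early gene list. By the 7 group means instead, 1 of the 3 was shared for Homer1 and for Nr4a1 and 0 for the others. These are the highest among all candidates and are a description.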

How the data were processed

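Rat spinal cord RNA was hybridised against reference pools on 2-colour arrays. The deposited table holds log2 ratios; the base was read from exact logarithms of small whole-number ratios that recur among them. The sources used here do not give dyes, scanner, background correction or normalization. Per the labels, titles name the sample first and the reference second. Gene symbols came from the platform annotation, updated by gene identifier for 4375 of 4423 probes with 1 symbol. The 52 spots of Gapdh were averaged and each array was centred on its median. All 21 arrays entered 1 limma fit (limma 3.58.1, R 4.3.3), with 1 coefficient per group, moderated statistics and 2-sided Benjamini-Hochberg adjusted p-values over all probes with at least 2 of 3 values in each compared group. The fit was tested on simulated data. The number of arrays limits the precision. Alternatives covered scaling, corrected ratios (loess span 0.4, source plates with at least 20 probes), filter, blocks, samples in the fit, moderation, arrays left out and the reference. Named genes are the 5 genes in every comparison, up to 4 passing probes per list and comparison with the largest change, and for each gene the 3 most similar probes among those measured on at least 80% of its arrays and at least 12. Family members were named besides, after their values were seen. The 5 genes and the lists were chosen with earlier results of these data known. Promoters are RefSeq's (GRCr8); 4 of the 5 genes matched.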

Additional observations from a re-analysis of the deposited data

Results flagged for a closer look

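In these 4 pairs every measured array of one group lay above 0 and every array of the other below it, against each group's own reference. Homer1 was above 0 in Indo and below 0 in Acet, a difference in means of 0.74, with 2 Indo arrays. Homer1 was likewise above 0 in NS398 and below 0 in Acet, a difference of 1.19. Nr4a1 was below 0 in Indo and above 0 in MP (-0.68) and in Acet (-0.82). In corrected ratios all 4 patterns were gone, since Homer1 in Acet (0.07, 0.59 and 0.35) and Nr4a1 in Indo (0.4, 0.59 and 0.3) then lay above 0. The references differ (ETOH or DMSO against PBS), and none of these differences was tested. Groups of 3 are too small to test for outlying arrays.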

How the results depend on the processing

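Of 419 values of the 5 genes under other settings, 383 kept their side of the threshold and their direction, or changed sign by less than the spread. A further 1 lost and 19 gained a call, 7 reversed (the sign turned and the value was called in either setting), and 9 turned sign by more than the spread with no call. With 1 array left out, 236 of 238 did not change call, and the exceptions were Homer1 in NS398. The count of calls there ran from 0 to 1 with 1 array left out. Without centring, 5 of 5 genes were called in Injured 4 hr minus Uninjured, CKIN and MP, 4 in Acet and 0 in NS398. The 7 reversals with a call were all in these deposited ratios, whose median of all probes moved by 1.47 to 1.67 in the PBS-referenced comparisons. They were Homer1 in Injured 4 hr minus Uninjured (1.51), Acet (1.83) and NS398 (-0.03), Nr4a1 in CKIN (1.78), Nr4a2 in CKIN (1.66) and MP (1.84), and Plk2 in CKIN (1.55). Uncalled signs also turned there for Nr4a2 in Acet (1.37) and for Arc (-0.41), Nr4a1 (-0.42) and Plk2 (-0.79) in NS398. In corrected ratios 1 gene was called in Injured 4 hr minus Uninjured, 1 in Indo and 2 in NS398. In Indo 1 was called after scale normalization and 1 with the sparse arrays as a block (Nr4a2, -0.9). In a fit of only the compared arrays 1 was called in Injured 4 hr minus Uninjured and 0 in NS398, where Homer1 had an adjusted p of 0.196. The cause of these changes was not tested. Calls over all probes moved too. Against 690, 748, 90, 62, 507 and 986 in the 6 comparisons in their order above, corrected ratios gave 345, 28, 41, 36, 376 and 575. With only the compared arrays there were 1824, 1052, 24, 131, 290 and 125. Deposited ratios gave 2430, 2232, 3170, 3371, 289 and 1977, quantile normalization 20, 618, 35, 47, 899 and 1036, and scale normalization 33, 1228, 645, 507, 741 and 1036. The sparse-array block gave 972, 8, 33, 58, 948 and 1089, and robust moderation 38 in Acet. Tested against 0 as ratios to the PBS pool, CKIN had 522 calls, MP 1373 and Acet 1443. Of these, 139, 706 and 805 were higher. With 1 array left out the calls ran from 355 to 493, 205 to 548, 3 to 598, 0 to 122, 299 to 380 and 481 to 962. Whether the replicate numbers pair the samples stayed undecided. Correlations of deviations from group means ran from -0.33 to 0.6 for same-numbered arrays and from -0.56 to 0.51 for different-numbered arrays. Both medians were 0, but deviations within a group sum to 0, so these medians cannot settle it. Out of 3 possible numbers, 8 of 21 arrays matched their own number best. With the replicate block Homer1 in NS398 was 0.87 (adjusted p = 0.017), 711 probes were called in Injured 4 hr minus Uninjured, and no call of the 5 genes changed.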
